A study of Mus musculus with 4 samples.

Results

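The 10 genes described here encode the MHC class II antigen presentation machinery of the mouse: the chains of the classical class II molecules (H2-Aa, H2-Ab1, H2-Eb1), the invariant chain (Cd74), the peptide editor H2-DM (H2-DMa, H2-DMb1, H2-DMb2), its inhibitor H2-O (H2-Oa, H2-Ob) and the transactivator Ciita. They were chosen by name, and each was read from the single-symbol probe set with the highest mean. Of the 10 genes, 8 had such a probe set, 1 each, among 19938 genes in all. H2-DMb1 and H2-DMb2 are annotated together on 1 shared probe set and were not analysed here. The dendritic cells (DCs) were grown for 8 days from bone marrow of C57BL/6 mice in medium with Flt3 ligand at 200 ng/ml, a cytokine that drives DC development. They were miR-142-/- (ko) or miR-142+/+ (wt), and each genotype was sorted into B220-negative, CD11c-positive CD8-equivalent DCs (CD172-negative, CD24-positive, low CD11b) and CD4-equivalent DCs (CD172-positive, low CD24, CD11b-positive). Each of the 4 groups, ko CD8-equivalent, wt CD8-equivalent, ko CD4-equivalent and wt CD4-equivalent, was measured on 1 array, with the number of mice or cultures behind it unstated, and likewise whether the subsets came from 1 culture. The values are RMA readings on the log2 scale, called readings below, which run from 3.52 to 14.33 in the whole table.

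Class II molecules hold peptides from endocytosed proteins at the surface of antigen-presenting cells, where CD4 T cells read them. An alpha and a beta chain assemble in the endoplasmic reticulum on the invariant chain, which steers them to endosomes and leaves a fragment in the groove. H2-DM exchanges that fragment for antigenic peptide, and H2-O restrains H2-DM. Transcription of these genes runs through a shared promoter module, the X and Y boxes, bound by the RFX and NF-Y complexes with CREB, on which the coactivator CIITA assembles. C57BL/6 mice make no H2-E surface protein because they lack the alpha chain, although the beta chain gene H2-Eb1 is transcribed.

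The promoter windows of the class II genes are shown because they carry the elements through which CIITA acts. RefSeq windows (GRCm38.p6), from 250 bases before to 50 after the annotated start, matched 7 of the 10 genes. The windows were searched on both strands for GNAAC, the core of the X box, followed after 12 to 45 bases by GATTGG, the inverted CCAAT of the Y box. The spacing was set after these windows had been seen, so the matches are a description. Of 32851 windows in the table, 1.88% held the pair, and GATTGG alone was in 16.1%. H2-Aa, H2-Eb1, H2-Oa, H2-Ob and H2-DMb1 held the pair, each with a gap of 24 to 27 bases, and so did the non-classical beta chain gene H2-Eb2 with a gap of 26. The letters searched were not found as a pair in the window of H2-DMb2 or in the 2 windows of H2-DMa. The capitals below mark GNAAC and GATTGG in 5 genes whose readings are described further on.
H2-Aa, chr17:34287774-34288073, minus strand: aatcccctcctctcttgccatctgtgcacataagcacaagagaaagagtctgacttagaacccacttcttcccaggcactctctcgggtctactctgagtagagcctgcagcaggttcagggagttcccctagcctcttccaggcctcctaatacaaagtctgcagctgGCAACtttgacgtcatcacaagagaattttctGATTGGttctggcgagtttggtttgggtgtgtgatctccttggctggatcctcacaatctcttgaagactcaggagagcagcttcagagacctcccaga
H2-Eb1, chr17:34305617-34305916, plus strand: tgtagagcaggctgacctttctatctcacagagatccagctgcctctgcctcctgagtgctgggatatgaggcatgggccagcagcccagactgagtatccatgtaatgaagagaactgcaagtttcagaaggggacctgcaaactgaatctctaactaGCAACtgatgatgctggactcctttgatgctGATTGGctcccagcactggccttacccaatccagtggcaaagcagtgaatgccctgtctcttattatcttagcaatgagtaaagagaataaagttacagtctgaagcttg
H2-Oa, chr17:34092129-34092428, plus strand: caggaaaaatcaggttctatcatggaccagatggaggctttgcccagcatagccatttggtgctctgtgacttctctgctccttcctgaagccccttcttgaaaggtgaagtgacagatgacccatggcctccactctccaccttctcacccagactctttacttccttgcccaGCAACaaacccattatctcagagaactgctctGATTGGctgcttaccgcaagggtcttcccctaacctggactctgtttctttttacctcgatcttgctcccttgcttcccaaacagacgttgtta
H2-Ob, chr17:34238655-34238954, plus strand: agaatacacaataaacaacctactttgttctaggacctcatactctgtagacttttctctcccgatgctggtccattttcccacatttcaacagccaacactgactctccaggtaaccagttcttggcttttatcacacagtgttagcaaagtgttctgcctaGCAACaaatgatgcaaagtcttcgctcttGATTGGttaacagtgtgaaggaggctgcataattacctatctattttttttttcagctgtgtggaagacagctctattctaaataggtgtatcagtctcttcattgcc
H2-Eb2, chr17:34325425-34325724, plus strand: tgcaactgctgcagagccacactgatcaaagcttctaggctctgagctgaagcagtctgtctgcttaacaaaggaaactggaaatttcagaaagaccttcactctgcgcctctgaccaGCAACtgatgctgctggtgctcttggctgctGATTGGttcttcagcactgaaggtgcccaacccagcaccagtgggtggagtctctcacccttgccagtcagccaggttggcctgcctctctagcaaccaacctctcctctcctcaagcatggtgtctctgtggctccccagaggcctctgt

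The microRNA absent from the ko cells gives 2 mature products from Mir142 on chromosome 11, shown with the seed (bases 2 to 8) in capitals, as RefSeq (GRCm38.p6) lists them.
mmu-miR-142a-3p: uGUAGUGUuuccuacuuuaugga
mmu-miR-142a-5p: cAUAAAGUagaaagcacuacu
The Mir142 probe set read 4.79 in ko and 9.87 in wt CD8-equivalent DCs, and 4.92 in ko and 10.37 in wt CD4-equivalent DCs. Both ko readings lay below the floor of 5.68, which is the median of all single-gene readings, and both wt readings lay above it. Whether the probe set lies within the deleted stretch is not stated.

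Subset labels were checked against the genes of the sorting markers. Sirpa, which encodes CD172a, read 9.67 in ko and 9.69 in wt CD8-equivalent DCs, and 11.92 in ko and 12.11 in wt CD4-equivalent DCs. Itgam, which encodes CD11b, was lower in CD8-equivalent DCs by a log2 difference of -1.94, and Cd24a was higher by 1.26 (limma adjusted p = 0.00375 and 0.041). Linear readings of the 12 CD4-type DC markers summed to 5706 in ko and 5255 in wt CD8-equivalent DCs. In CD4-equivalent DCs they summed to 22700 in ko and 23485 in wt. For subset, limma called 11 of these 12 lower and 0 higher, against 6.35% and 7.98% of all genes tested. Some read below the floor in CD8-equivalent DCs. Of the 12, 3 were 2-fold or more lower in ko than in wt CD4-equivalent DCs and 1 was higher. Shares over all genes compared were 0.952% and 1.39%. The list of CD8-type DC markers did not separate the subsets as evenly in ko. Its 11 measured genes, of 12, summed to linear readings of 22131 in ko and 22727 in wt CD8-equivalent DCs, and 14698 in ko and 7024 in wt CD4-equivalent DCs. Irf8 (12.42) and Cd24a (11.98) read highest of them in ko CD4-equivalent DCs. Of 9 of them compared, 5 were 2-fold or more higher in ko than in wt CD4-equivalent DCs. The share over all genes compared was 1.39%. Batf3 (-0.04) and Wdfy4 (-0.29) were not higher there. Between the ko subsets, Xcr1, Tlr3, Batf3 and Tlr12, 4 of 9, kept a 2-fold or larger excess on the CD8-equivalent array, and 1 (Cadm1) was reversed. In wt 8 of 10 had that excess and 0 were reversed. Over all genes compared, 3.39% had it and 3.90% the reverse in ko, and 2.10% and 3.14% in wt. Tlr12 (5.35) and Itgae (4.87) lay below the floor on the wt CD4-equivalent array. Their differences from that array thus have no measured size. Limma called 5 of the 10 tested higher for subset and 0 lower, against 7.98% and 6.35% of all genes tested. Clec9a, a receptor of CD8-type DCs, read 11.15 in ko and 10.89 in wt CD8-equivalent DCs, and 10.85 in ko and 7.78 in wt CD4-equivalent DCs. Cadm1 was lower in CD8-equivalent DCs by -1.71 on the log2 scale in ko and higher by 0.14 in wt. Marker lists of other cell types were not even over the arrays, and the part of all these lists in the results below was not tested. Of 9 plasmacytoid DC markers 8 were measured, with summed linear readings of 13645 in ko CD8-equivalent, 11223 in wt CD8-equivalent, 7126 in ko CD4-equivalent and 3411 in wt CD4-equivalent DCs. The 9 measured macrophage markers, of 11 listed, summed to 2955, 8344, 13008 and 14674 on the arrays in the same order, and the 11 neutrophil markers to 502, 355, 4053 and 817. The 8 progenitor markers summed to 6230, 3754, 2612 and 1598. Of B cells, which also carry class II and H2-O, 8 of 9 markers were measured and summed to 1931, 1589, 1713 and 2053, while the defining genes Cd79a, Ms4a1 and Pax5 lay below the floor on all 4 arrays. Cd79b (9.60 to 9.90), Cd22 (8.51 to 9.67) and Blnk (6.82 to 8.73) of the same list read above it on every array. Of the 8 T and NK cell markers, 7 lay below it on every array. In sorted bulk samples a smaller share of cells with a transcript and less of it per cell cannot be told apart.

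Ciita had the largest differences of the measured genes in both comparisons. It encodes the coactivator that sets class II transcription, and its gene lies on chromosome 16, away from the class II region of chromosome 17. It read 9.56 in ko and 10.18 in wt CD8-equivalent DCs, and 10.58 in ko and 11.10 in wt CD4-equivalent DCs. Each ko array thus lay below the wt array of its subset, and both CD8-equivalent arrays lay below both CD4-equivalent arrays. The ko level was 1.53-fold lower in CD8-equivalent and 1.43-fold lower in CD4-equivalent DCs. CD8-equivalent DCs were 2.02-fold lower than CD4-equivalent DCs in ko and 1.89-fold lower in wt.

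The chains of the classical molecules read high on every array. H2-Aa, the alpha chain of H2-A, read 13.04 in ko and 13.24 in wt CD8-equivalent DCs, and 13.40 in ko and 13.45 in wt CD4-equivalent DCs. Its partner H2-Ab1 read 13.01 in ko and 13.23 in wt CD8-equivalent DCs, and 13.33 in ko and 13.43 in wt CD4-equivalent DCs. No pairwise comparison of these 2 genes exceeded 1.28-fold. H2-Eb1, the H2-E beta chain, spread further, with 12.39 in ko and 12.70 in wt CD8-equivalent DCs, and 13.01 in ko and 13.12 in wt CD4-equivalent DCs. Its CD8-equivalent level was 1.53-fold lower in ko and 1.34-fold lower in wt than the CD4-equivalent one. Cd74, the invariant chain, read 12.65 in ko and 12.84 in wt CD8-equivalent DCs, and 13.13 in ko and 13.20 in wt CD4-equivalent DCs. For all 4 of these genes both CD8-equivalent arrays lay below both CD4-equivalent arrays, as in 21.3% of genes tested. With 4 arrays that order forces the ko and wt arrays to overlap, so their overlap carries no information on genotype.

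H2-DM and H2-O act on the class II molecule in the endosome. H2-DMa, the alpha chain of H2-DM, read 12.01 in ko and 12.21 in wt CD8-equivalent DCs, and 12.46 in ko and 12.39 in wt CD4-equivalent DCs. It was the 1 measured gene with a higher reading in ko than in wt in a subset, by 0.07 on the log2 scale. H2-Oa, the alpha chain of H2-O, read 10.20 in ko and 10.67 in wt CD8-equivalent DCs, and 10.97 in ko and 11.43 in wt CD4-equivalent DCs. This spread was close to that of Ciita, with the same order of arrays. H2-Ob, its beta chain, read 10.68 in ko and 10.99 in wt CD8-equivalent DCs, and 10.82 in ko and 11.21 in wt CD4-equivalent DCs. H2-Ob was the 1 measured gene whose ko arrays both lay below both wt arrays, a pattern found in 18.1% of 10239 genes tested. On 4 arrays that pattern forces the subsets to overlap, as they did in H2-Ob. The other 7 genes separated by subset, so they could not also separate by genotype.

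**Figure D1:**
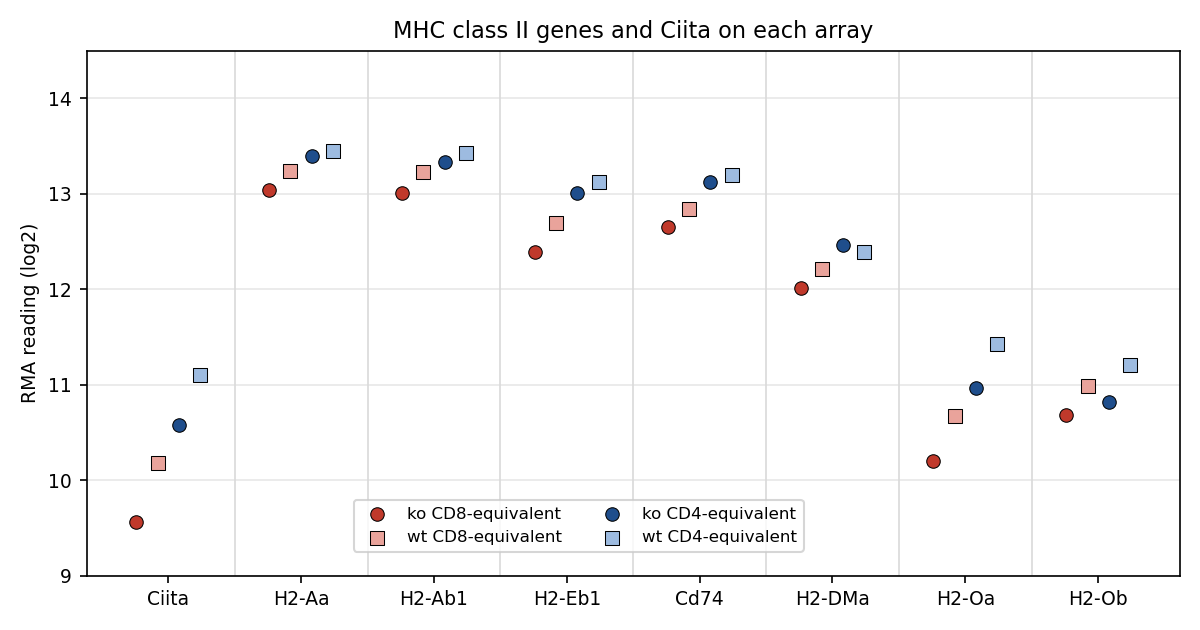
RMA readings (log2 scale, vertical axis) of the 8 measured genes on the 4 arrays, 1 point per array; there are no replicates and so no error bars. Ciita spans 9.56 to 11.10 and H2-Oa 10.20 to 11.43, while H2-Aa stays between 13.04 and 13.45.

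Ordered by level, 6 of the 8 genes (Ciita, H2-Aa, H2-Ab1, H2-Eb1, Cd74 and H2-Oa) ran from ko CD8-equivalent, the lowest, through wt CD8-equivalent and ko CD4-equivalent to wt CD4-equivalent DCs. That order was found in 8.98% of the 10239 genes tested. In H2-Ob the middle positions were exchanged, and in H2-DMa the CD4-equivalent ones. With 1 array per group, neighbours in the order could not be tested against each other. All 8 genes were lower in CD8-equivalent DCs in both genotypes, as were 29.0% of genes tested, and 7 of 8 were lower in ko in both subsets, as were 37.3%. Both held together for 7 of 8, and for 14.2% of genes tested. Ciita is counted beside genes on which its product acts, and all 8 were read on the same 4 arrays, so the counts are not independent observations.

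The first comparison asked whether loss of miR-142 changed the class II genes whatever the subset. None of the 8 measured genes was called: each had a lower mean reading in ko, from -0.06 for H2-DMa to -0.57 for Ciita, but 0 passed limma at a Benjamini-Hochberg adjusted p under 0.05. The additive model of genotype and subset called 0.0586% of 10239 genes lower and 0.107% higher in ko. At an unadjusted p under 0.05, 3 of the 8 were lower, against 8.27% of all genes lower and 7.34% higher. Over all genes those were 847 lower and 752 higher as deposited, and 684 lower and 1034 higher after cyclic loess. The 3 were Ciita at -0.57 ± 0.12 (SE, limma adjusted p = 0.132), H2-Oa at -0.47 ± 0.12 (limma adjusted p = 0.179) and H2-Ob at -0.35 ± 0.12 (limma adjusted p = 0.27). An effect as low as that of Ciita or lower was found in 2.76% of genes. The model has 1 residual degree of freedom and 3.98 prior degrees of freedom, so the 2 subsets stand in for replicates. Under limma's trended and robust prior Ciita and H2-Oa passed (limma adjusted p = 0.0364 and 0.0483), and under the other settings tried they did not.

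For the classical chains the interval of the genotype effect gives a range under the model, without any spread between mice or cultures. The limma 95% interval ran from -0.43 to 0.19 for H2-Aa, from -0.47 to 0.14 for H2-Ab1, from -0.53 to 0.11 for H2-Eb1 and from -0.43 to 0.18 for Cd74. That of H2-DMa ran from -0.40 to 0.27. These intervals hold 0, so a difference was not shown, and they also hold lower ko levels. The intervals of Ciita (-0.87 to -0.26), H2-Oa (-0.76 to -0.17) and H2-Ob (-0.65 to -0.05) lay below 0 before adjustment for the number of genes.

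The genotype differences within each subset have no replicate check. In CD8-equivalent DCs they ran from -0.61 (Ciita) to -0.18 (Cd74), with a median of -0.26, where the median over all genes tested was 0.003. In CD4-equivalent DCs they ran from -0.52 (Ciita) to 0.07 (H2-DMa), with a median of -0.11 against -0.074 over all genes. No measured class II gene reached a 2-fold difference between genotypes, where 1.00% of 9972 genes were as far below and 1.14% as far above in CD8-equivalent DCs, and 0.952% of 9978 below and 1.39% above in CD4-equivalent DCs. The difference in CD8-equivalent minus that in CD4-equivalent DCs, given without a test, was -0.09 for Ciita, 0.08 for H2-Ob and -0.27 for H2-DMa. For the classical chains and Cd74 it lay between -0.19 and -0.11, and the quartiles of all genes were -0.11 and 0.26.

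**Figure D2:**
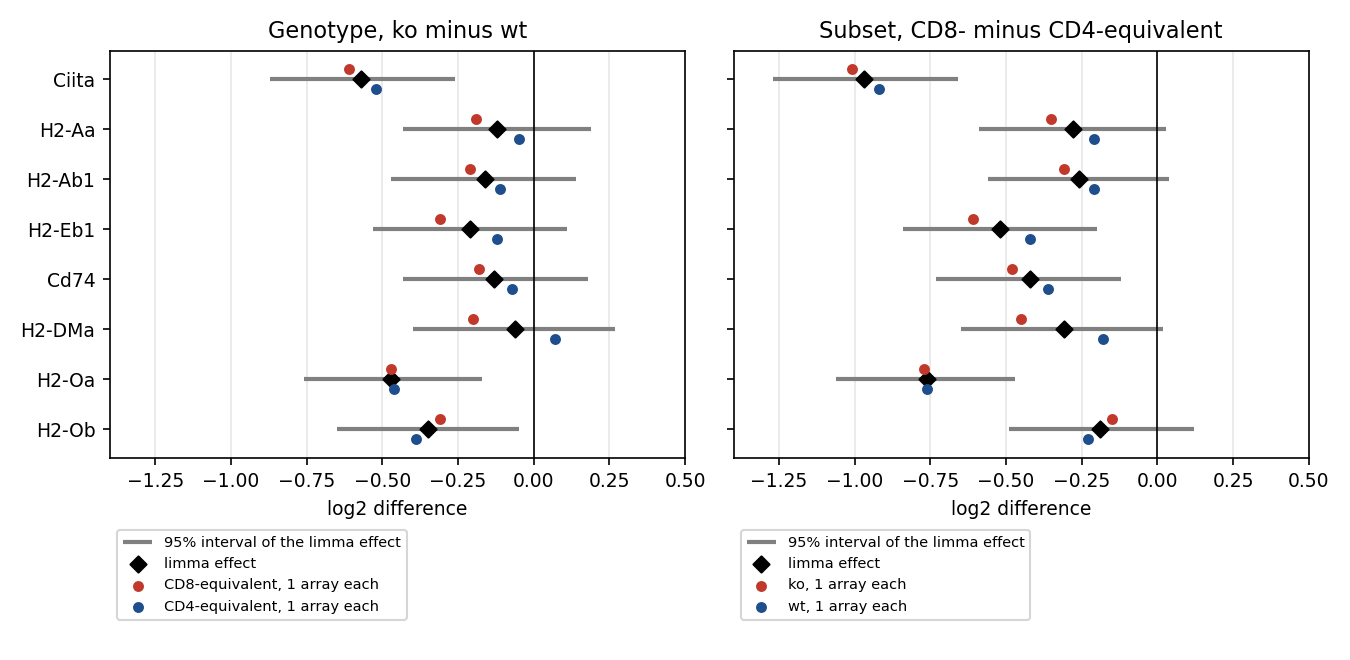
Log2 differences (horizontal axis) of the 8 measured genes, ko minus wt on the left and CD8- minus CD4-equivalent on the right; diamonds are the limma effects over all 4 arrays with 95% intervals, and round points are differences of 2 single arrays. Ciita stands lowest in both panels, at -0.57 for genotype and -0.97 for subset.

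The second comparison asked how the subsets differed. Ciita and H2-Oa were lower in the CD8-equivalent subset in both genotypes. The limma subset effect was -0.97 ± 0.12 for Ciita (SE, 4 arrays, adjusted p = 0.0143) and -0.76 ± 0.12 for H2-Oa (adjusted p = 0.0215). Of the 8 measured genes, these 2 passed, where limma called 6.35% of 10239 genes lower and 7.98% higher in CD8-equivalent DCs. At an unadjusted p under 0.05, 4 of the 8 were lower, against 13.0% of all genes lower and 20.3% higher. After cyclic loess scaling the calls over all genes were 968 lower and 789 higher, against 650 lower and 817 higher as deposited. Both genes passed under every one of the 7 settings, with adjusted p from 0.00147 to 0.0293 for Ciita and from 0.00242 to 0.0332 for H2-Oa. An effect as low as that of Ciita or lower was found in 3.47% of genes.

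The other class II genes were lower in CD8-equivalent DCs by less. H2-Eb1 had a subset effect of -0.52 ± 0.12 (limma adjusted p = 0.0551) and Cd74 one of -0.42 ± 0.12 (limma adjusted p = 0.0764), and both passed under some settings, H2-Eb1 under 3 of 7 and Cd74 under 2 of 7. H2-DMa (-0.31), H2-Aa (-0.28) and H2-Ab1 (-0.26) had intervals that reached just above 0, up to 0.02, 0.03 and 0.04. H2-Ob differed least, at -0.19 with an interval from -0.49 to 0.12. The median over the 8 genes was -0.37, against 0.076 over all genes tested. In 7 of the 8 genes, all but H2-Ob, both CD8-equivalent arrays lay below both CD4-equivalent arrays, a pattern found in 21.3% of genes. Ciita was also the 1 gene past a 2-fold subset difference, in ko only (-1.01 in ko, -0.92 in wt), where 3.90% of 10118 genes lay as far below and 3.39% as far above in ko, and 3.14% of 9998 below and 2.10% above in wt. Whether the subset difference itself differed between ko and wt could not be tested.

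**Figure D3:**
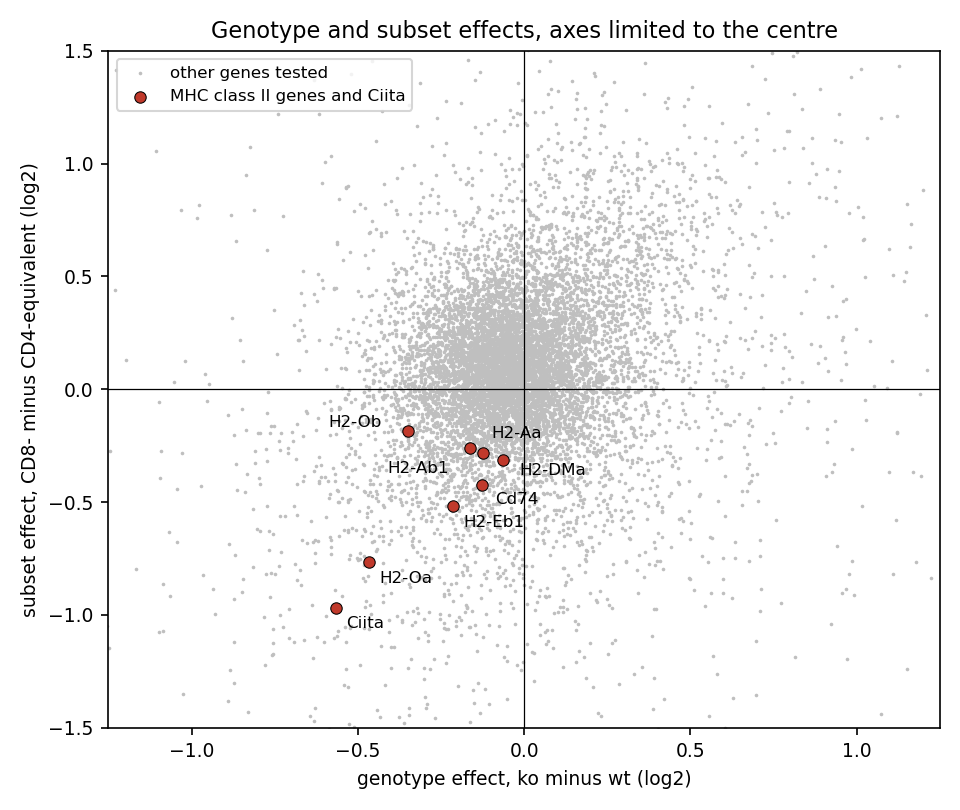
Limma genotype effect (horizontal axis, ko minus wt, log2) against subset effect (vertical axis, CD8- minus CD4-equivalent, log2) for the genes tested, with the 8 measured class II genes in red; 275 of 10239 genes lie outside the axes. All 8 lie below 0 on both axes, with Ciita and H2-Oa farthest from the origin.

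The genotype effects were smaller in the genes with the highest readings, and the subset effects followed that division except in H2-Ob. The 5 genes that read 12 or more on every array (H2-Aa, H2-Ab1, H2-Eb1, Cd74 and H2-DMa) had genotype effects between -0.21 and -0.06, and the 3 that read below it (Ciita, H2-Oa and H2-Ob) had effects between -0.57 and -0.35. The subset effects of those 5 lay between -0.52 and -0.26. Of the 3 with lower readings, Ciita (-0.97) and H2-Oa (-0.76) had larger ones, and H2-Ob had the smallest, -0.19. The highest readings of H2-Aa and H2-Ab1 lay 0.88 and 0.90 below the highest value of the table. Over all genes, 8.19% of the 281 with a mean reading of 12 or more had a genotype effect of 0.3 or more in size, against 15.5% of the 4245 with a mean from 9 to 12. For a subset effect of 0.5 or more in size the shares were 6.05% and 15.6%. The edge at 12 was chosen after the readings were seen. Whether the top of the scale compressed the differences of the abundant class II transcripts was not tested.

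**Figure D4:**
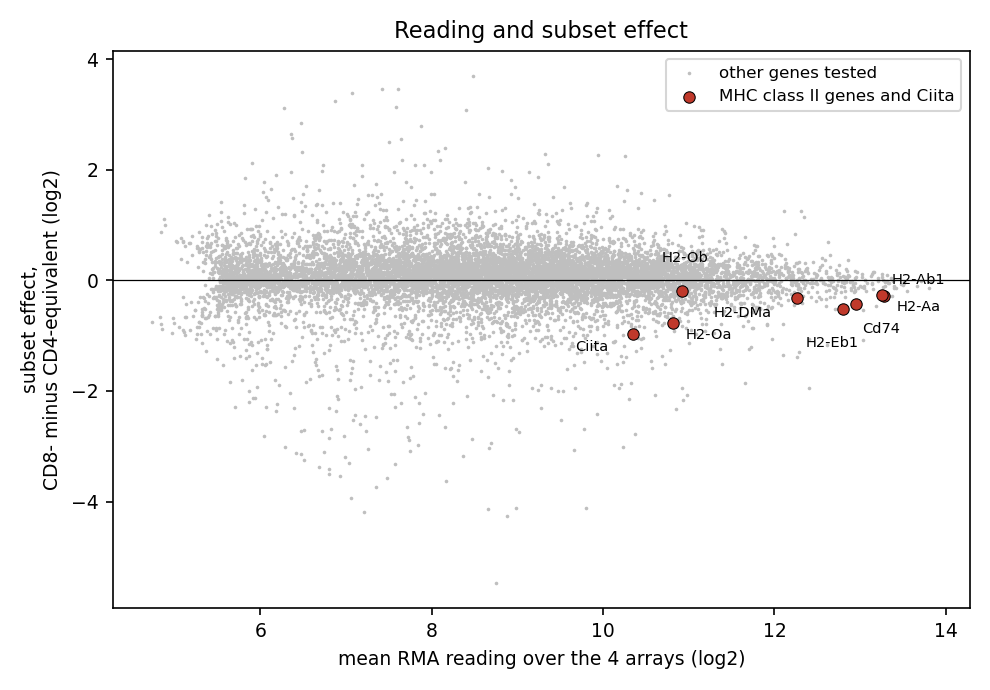
Mean reading over the 4 arrays (horizontal axis, log2) against the limma subset effect (vertical axis, CD8- minus CD4-equivalent, log2) for the genes tested, with the 8 measured class II genes in red. The cloud narrows at high readings, where H2-Aa, H2-Ab1, H2-Eb1 and Cd74 lie.

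The factors of the class II promoter complex were measured next to their targets. Of 10 such genes, 0 passed limma for genotype, with a median effect of -0.03, and 1 was lower for subset, with a median of 0.08. Over all genes tested limma called 6.35% lower and 7.98% higher for subset, and 0.0586% lower and 0.107% higher for genotype. Rfx5, a subunit of RFX, read 8.13 in ko and 8.11 in wt CD8-equivalent DCs, and 8.60 in ko and 8.90 in wt CD4-equivalent DCs. Its subset effect was -0.63 (limma adjusted p = 0.0445). With 6.35% of all genes called lower for subset, 1 of 10 is near the share of any genes. The NF-Y subunits Nfya and Nfyb had subset effects of 0.34 and 0.37 (limma adjusted p = 0.132 and 0.0953). The RFX subunits Rfxank and Rfxap had genotype effects of -0.28 and -0.21, and the histone acetyltransferase Kat2b, a CIITA partner, one of 0.49 (limma adjusted p = 0.341, 0.482 and 0.162).

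Among regulators of Ciita, the transcription factor Irf4 was lower in CD8-equivalent DCs, above the floor on all 4 arrays. Of 11 listed genes, 10 were measured and 9 tested, of which 2 were lower for subset and 0 passed for genotype. Over all genes tested, 6.35% were called lower for subset. Irf4, a factor of CD4-equivalent DCs, read 7.51 in ko and 7.76 in wt CD8-equivalent DCs, and 10.04 in ko and 10.62 in wt CD4-equivalent DCs (subset effect -2.70, limma adjusted p = 0.00292). Prdm1, which encodes the Ciita repressor Blimp-1, read 4.96 in ko and 5.31 in wt CD8-equivalent DCs, both under the floor, and 5.98 in ko and 6.44 in wt CD4-equivalent DCs. It entered the fit only through the CD4-equivalent arrays, so its call (limma adjusted p = 0.0118) gives a direction and no measured size. Irf8, a factor of CD8-equivalent DCs, stood the other way, with 12.98 in ko and 12.87 in wt CD8-equivalent DCs, and 12.42 in ko and 11.13 in wt CD4-equivalent DCs. It differed by 1.29 between genotypes in CD4-equivalent DCs, and neither of its effects passed (limma adjusted p = 0.343 for genotype and 0.0613 for subset).

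The genes of the class II compartment and of class II turnover gave 1 call. Of 13 genes tested, 0 passed for genotype (median effect 0.01) and 1 was lower for subset (median -0.27). With 6.35% of all genes called lower for subset, 1 of 13 is near the share of any genes. Ctss, cathepsin S, which trims the invariant chain, read 11.39 in ko and 11.66 in wt CD8-equivalent DCs, and 12.43 in ko and 12.18 in wt CD4-equivalent DCs (subset effect -0.78, limma adjusted p = 0.0416). The endosomal protease Lgmn (-0.60) and Cd83, which protects surface class II from ubiquitination (-0.95), had subset effects of that sign that did not pass (limma adjusted p = 0.0527 and 0.087). Marchf8, of the ubiquitin ligase family that targets class II, the protease Ctsl and the thiol reductase Ifi30 had genotype effects of 0.45, 0.38 and 0.32, and none passed (limma adjusted p = 0.184, 0.379 and 0.328). Both wt readings of Marchf8, 5.53 in CD8-equivalent and 5.27 in CD4-equivalent DCs, lay below the floor. Marchf1, of the same family and named outside the naming rule, read 9.78 to 10.22 over the arrays. Its genotype effect was -0.22 (limma adjusted p = 0.452).

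Other genes of the class II region on chromosome 17 did not share 1 direction. Of 8 genes measured, 6 were tested, of which 1 was lower and 1 higher for subset and 0 passed for genotype. The shares of all genes called for subset were 6.35% lower and 7.98% higher. H2-Eb2, whose promoter window is printed above, read 5.04 in ko and 5.27 in wt CD8-equivalent DCs, and 7.37 in ko and 8.35 in wt CD4-equivalent DCs. Its CD8-equivalent readings lay below the floor, and it entered the fit only through the CD4-equivalent arrays, so its lower call (limma adjusted p = 0.00551) gives no measured size. Tap2, a subunit of the peptide transporter for MHC class I, was higher in CD8-equivalent DCs by 0.62 (limma adjusted p = 0.0376), and the immunoproteasome gene Psmb9 had a subset effect of 0.51 that did not pass (limma adjusted p = 0.0947). H2-Ea, the H2-E alpha chain gene, named outside the naming rule as a check of the strain, read between 4.77 and 4.95, below the floor on all 4 arrays.

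Of the genes of DC maturation, a process that also brings class II to the surface, 4 were called lower in CD8-equivalent DCs, of 9 tested and 10 listed. Limma called 6.35% of all genes tested lower, and some of the 4 rest on the CD4-equivalent arrays alone, as given below. The costimulatory receptor Cd40 (-2.10) and the NF-kB subunit Relb (-1.16) read above the floor on all 4 arrays (limma adjusted p = 0.00691 and 0.00979). The actin bundler Fscn1, with 5.19 in ko and 5.00 in wt, and the ligand Cd274, with 5.42 in ko and 5.29 in wt, lay under the floor in CD8-equivalent DCs. Both entered the fit only through the CD4-equivalent arrays, so their calls (limma adjusted p = 0.00181 and 0.0169) give no measured size. For genotype 0 passed. Cd86, a costimulatory ligand, read 8.23 in ko and 9.36 in wt CD8-equivalent DCs, and 8.39 in ko and 9.75 in wt CD4-equivalent DCs (effect -1.24, limma adjusted p = 0.0533). Cd80 had a genotype effect of -0.86 and Ccr7 one of 0.60 (limma adjusted p = 0.0731 and 0.168). Il12b, a cytokine subunit, was above the floor on 1 array, with 6.10 in ko against 4.97 in wt CD4-equivalent DCs.

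**Figure D5:**
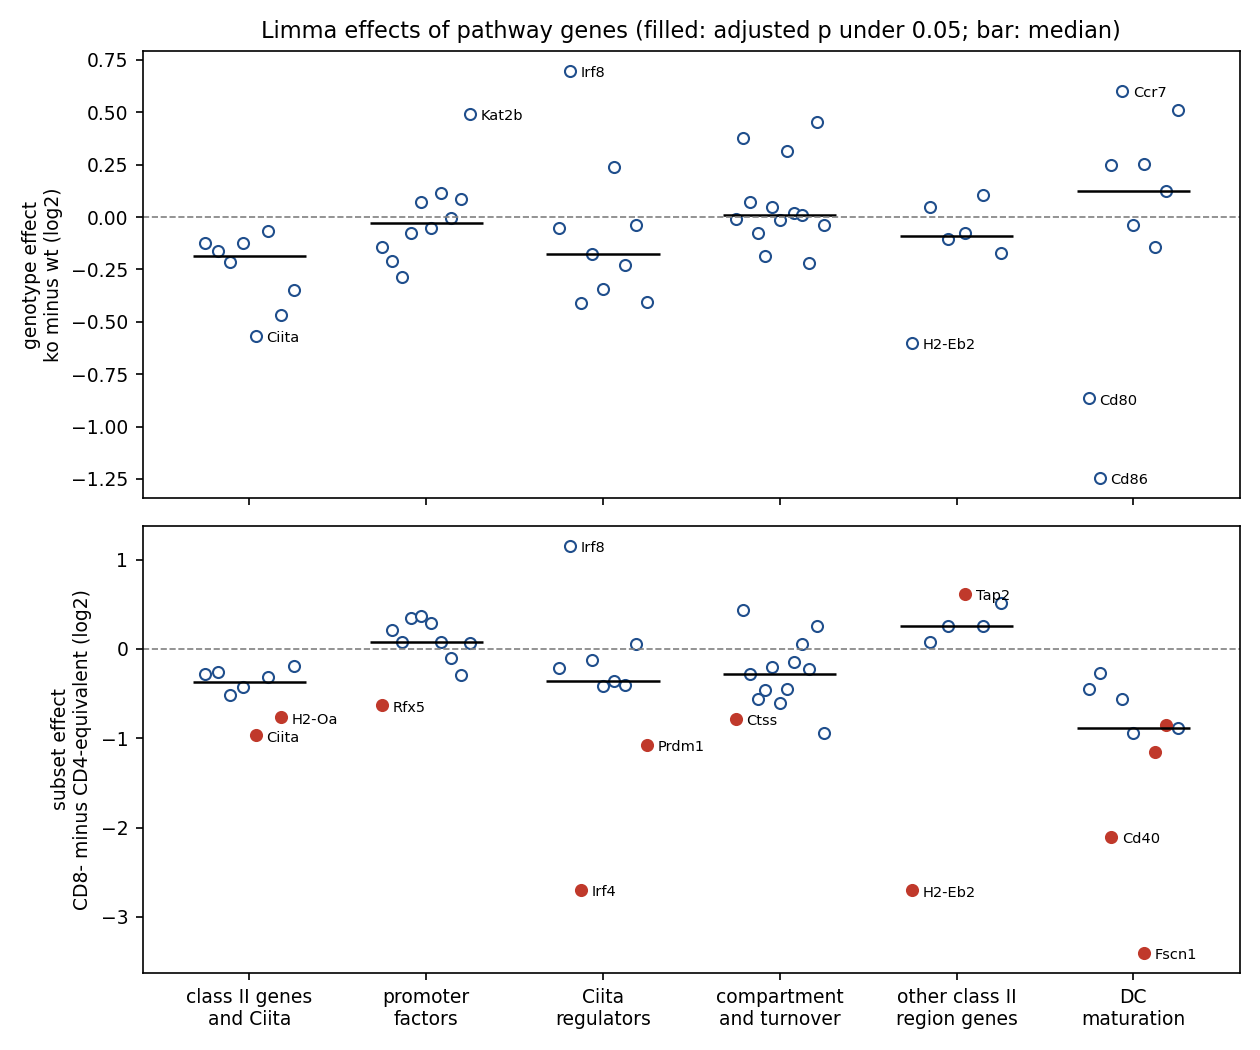
Limma genotype effects (upper panel, ko minus wt, log2) and subset effects (lower panel, CD8- minus CD4-equivalent, log2) of the tested genes of each list, 1 point per gene; filled points have an adjusted p under 0.05 and bars are medians. No point is filled in the upper panel, and in the lower one Ciita (-0.97) and H2-Oa (-0.76) are filled among the class II genes.

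The profile of Ciita over the arrays was compared with those of all genes at or above the floor on every array. Likeness was the Euclidean distance between the 4 readings of each gene after subtraction of its mean, over 9380 other genes. With 4 values per gene, close profiles are common, and the distances are a description. The 8 nearest genes were Borcs6, a subunit of a lysosome-positioning complex (distance 0.09), Nostrin (0.15), the calpain protease gene Capn2 (0.15), Lrrc25 (0.17), the mTOR inhibitor gene Deptor (0.17), Rnd3 (0.17), the interferon regulatory factor Irf7 (0.19) and Vwa5a (0.20). Of the class II genes H2-Oa came nearest, at a distance of 0.23 and rank 19, then H2-Eb1 at 0.57 and rank 311. H2-DMa was farthest of the 7, at 0.83 and rank 1022.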

How the data were processed

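The authors deposited 1 log2 value per probe set and array for 35399 probe sets; RMA and Partek are named per the submitters' processing notes, with no versions. The log base was inferred from the values. The platform annotation gave 1 gene symbol to 21789 probe sets, several to 1621, and 11989 were unnamed. Of those with 1 symbol, 21698 matched RefSeq (GRCm38.p6) by gene ID. For 999 genes with several probe sets the one with the highest mean was kept.

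Genes whose highest reading reached the floor of 5.68 (10239 of 19938) entered limma 3.58.1 in R 4.3.3 (lmFit and eBayes, genotype and subset as additive terms, two-sided, Benjamini-Hochberg over all 10239 genes, threshold 0.05). With 1 array per group, the 1 residual degree of freedom is the disagreement of the subsets on genotype (the interaction), possibly technical. Limma joins it to a prior drawn from all genes tested, so p-values measure no spread between mice, cultures or replicate arrays. The number of arrays limits precision. Pairwise differences had no test, and 2-fold means a log2 difference of 1. From the lists other than cell type markers, the text names genes that passed or lay past 2-fold in a pairwise comparison. It also names up to 3 per list with the largest genotype effects and up to 3 with the largest subset effects. The cell type marker lists are given mostly as sums, and not all of their genes that passed are named. Ciita's 8 nearest profiles were taken by distance. Alternatives were no floor, a raised floor, a trended and robust prior, cyclic loess, aligned array medians and the mean over probe sets. Members and lists were chosen with earlier results of these data known. The fit was tested on simulated data.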

Additional observations from a re-analysis of the deposited data

Results flagged for a closer look

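Several genes had opposite signs of ko minus wt in the subsets, with 1 array on each side, so that the difference between subsets was not tested. In many of them 1 of the values lies near 0 (0.02 in Rfx5 and Nfya), so its sign carries little. The share of opposite signs over all genes was not counted. The values are ko minus wt on the log2 scale, first in CD8-equivalent and then in CD4-equivalent DCs. H2-DMa, the alpha chain of H2-DM, had -0.20 and 0.07. Cd83, which protects surface class II, had -0.61 and 0.54, and the invariant chain protease Ctss had -0.27 and 0.25. The protease Lgmn had -0.19 and 0.16. Of the promoter factors, Rfx5 had 0.02 and -0.30 and Nfya 0.02 and -0.18. Of the class I processing genes, Tap2 had -0.18 and 0.03, Psmb9 -0.42 and 0.08, and Psmb8, named outside the naming rule, -0.06 and 0.28. The costimulatory receptor Cd40 had -0.04 and 0.54, and the sorting marker gene Cd24a -0.04 and 1.00. The cytokine gene Il12b had -0.11 and 1.13, but 3 of its 4 readings lay under the floor (both CD8-equivalent arrays and the wt CD4-equivalent one), so its opposite signs rest on readings not above the floor.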

How the results depend on the processing

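Of 267 values recomputed under the alternatives, 0 reversed, and 10 effects of single genes passed where they had not. The floor and prior settings and the mean over probe sets alter no log2 effect of these genes. Only cyclic loess and aligned medians could turn a sign. Among pairwise differences, only those with a reported size of 1 or more on the log2 scale could be labelled reversed. The 0 was thus largely fixed in advance. The class II genes called lower for subset numbered 2 as reported, 3 after cyclic loess (H2-Eb1 added), 4 with the floor raised to the 75th percentile (H2-Eb1 and Cd74 added) and 7 with the trended and robust prior (all but H2-Ob). Those called lower for genotype numbered 0 as reported and 2 with the trended and robust prior. The cause was not tested. Over all genes the genotype calls numbered 17 as reported, 3 without a floor, 141 with the raised floor, 307 with the trended prior, 130 after cyclic loess and 53 with array medians aligned. Subset calls numbered 1467 as reported, 946 without a floor, 1281 with the raised floor, 2128 with the trended prior, 1757 after cyclic loess and 1521 with array medians aligned. Cyclic loess moved the median subset difference of all genes in ko from 0.112 to 0, and the class II genes kept their sign. The probe set choice cannot move them, since each has 1 probe set. No paired analysis was possible because each group has 1 array and the labels number no replicates. No array could be left out, since 3 arrays leave the model without residual degrees of freedom.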
